A study of Homo sapiens with 6 samples.

Results

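The ABC transporters are a family of membrane and cytosolic proteins built around an ATP-binding cassette, and their transcripts were measured here on 6 arrays of NCI-H292, an established line from a human pulmonary mucoepidermoid carcinoma. Members were the probe sets annotated to exactly 1 gene whose symbol starts ABCA, ABCB, ABCC, ABCD, ABCE, ABCF or ABCG followed by a digit, with pseudogenes left out. This gave 92 probe sets of 41 genes, out of 54613 probe sets other than controls and 19775 genes. Cells of the CT45A1 overexpression group (n = 3) carried a stable CT45A1-Venus fusion, Venus being a fluorescent protein, while those of the CT45A1 negative group (n = 3) carried the Venus vector. Both groups therefore held Venus, and both grew in serum-containing DMEM. The labels do not say whether the transfected cells were a clone or a pool, and do not describe the replicates further, so the p-values reflect array-to-array spread that could be technical. CT45A1 is a cancer/testis antigen, normally expressed mainly in testis.

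ABC transporters use the energy of ATP to move lipids, drugs, conjugated metabolites, peptides or metal complexes across membranes. Subfamily A mainly handles lipids, B holds the drug pump P-glycoprotein and several mitochondrial and lysosomal transporters, C holds the multidrug resistance proteins that export organic anions and glutathione conjugates, D works in peroxisomes and lysosomes, and G holds sterol exporters and a drug pump. Subfamilies E and F have the cassette but no membrane domain, and act on ribosomes. In lung cancer the family is best known for drug efflux through ABCB1, ABCC1 and ABCG2.

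No ABC transporter under the ABCA to ABCG symbols passed the test between the groups. The values were MAS5 signals, a linear brightness per probe set, compared with limma as log2 differences (overexpression minus negative), and a call needed a Benjamini-Hochberg adjusted p under 0.05. Of the 92 member probe sets, 40, of 23 genes, were bright enough to test, which meant a signal above the array's own median on at least 3 of the 6 arrays, a filter that 50.6% of all probe sets passed. Of these, 0 were called higher and 0 lower, where 3.23% of all 27618 probe sets tested were called, 1.89% higher and 1.34% lower. At an unadjusted p under 0.05 there were 10 of 40 (25.0%), 8 higher and 2 lower, beside 20.7% of all probe sets tested, 12.2% higher and 8.5% lower. The groups did not overlap at 12 of 40 (30.0%), 9 higher and 3 lower, beside 26.6% of all, 15.2% higher and 11.4% lower. Both shares lay near the background and are read as no result about the family. With each gene represented by its brightest tested probe set, 0 of 23 genes passed in limma, beside 3.83% of 11895 genes in all, 1.94% higher and 1.89% lower. Of the 23, 6 had an unadjusted p under 0.05, beside 20.9% of all genes, and the groups did not overlap at 8, beside 27.2%.

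In these bulk samples, fewer cells with a transcript and less of it per cell cannot be told apart. The differences ran from -0.65 to 0.96 on the log2 scale, with a median of 0.13 beside 0.03 for all probe sets tested, and 28 of 40 lay above 0, beside 55.5% of all. Centring each array on its median lowers every difference by the same 0.14 by construction, so it moved the median of all probe sets tested to -0.11 and that of the ABC probe sets to -0.01, with 19 of 40 above 0. After quantile normalization the medians were -0.01 and 0.04, with 25 of 40 above 0. For 35 of the 40 probe sets the 95% interval of the difference, taken singly, stayed within a 2-fold change in either direction, and for 18 it stayed within 1.5-fold. The 5 wider ones were probe sets of ABCB6, ABCB9, ABCC3 and ABCC4 (ABCC3 has 2 of them).

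**Figure D1:**
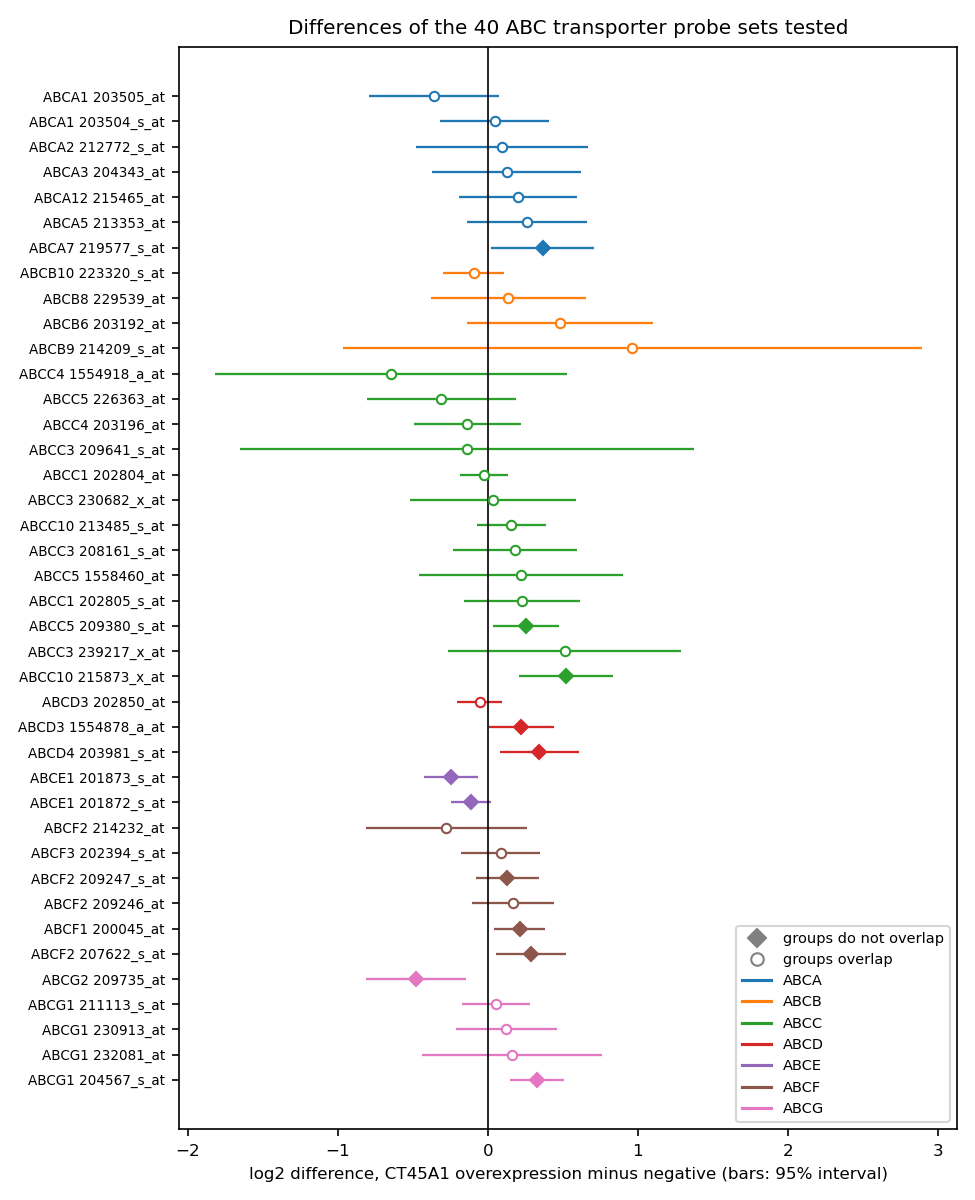
Log2 difference (overexpression minus negative, x axis) with its 95% interval from limma for the 40 ABC transporter probe sets tested (y axis), coloured by subfamily and grouped from ABCA at the top to ABCG at the bottom. Filled diamonds mark the 12 probe sets whose 3 overexpression and 3 negative arrays did not overlap; the differences run from -0.65 to 0.96 and none reached an adjusted p under 0.05.

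Several properties of the arrays as a whole differed between the groups. The signal of the CT45 probe sets, each annotated to several CT45 genes, was higher on all overexpression arrays, at 445 to 700.1 against 1.95 to 23.1 for the brighter of them. The array median was 79.2 to 83.3 with CT45A1 and 72.6 to 75.6 without it, and the ratio of the 3' to the 5' actin control, which rises when RNA is degraded, was 1.42 to 1.55 against 1.64 to 1.91. Their part in the differences below was not tested, and the settings named beside a difference show only how it moved. The actin ratios of the groups did not overlap. A model that holds the ratio therefore cannot tell it apart from CT45A1. Of 6 markers of lung epithelial cells all 6 lay above the array median on every array, with summed signals of 72915 to 74015 against 74465 to 81213, and KRT18 passed the test. Of 5 mucoepidermoid and secretory markers 4 were on the array and tested, at 6659 to 7009 against 5586 to 6905. Of the markers of other cell types, 1 of 6 for fibroblasts (FAP), 2 of 5 for endothelial cells (CDH5 and PECAM1) and 1 of 5 for leukocytes on the array (CD14) were bright enough to test and none passed. Their summed signals were 1300.3 to 1850.1 against 974 to 1531, 380 to 466 against 283 to 354, and 344 to 390.0 against 264 to 371. FAP, CDH5 and PECAM1 lay above the median on every array. LUM, PDGFRA, PDGFRB, KDR, TEK, VWF, LYZ and PTPRC lay below it on every array. The sums did not overlap between the groups for endothelial cells, higher with CT45A1, and for lung epithelial cells, lower with it.

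The other 52 member probe sets lay below the array median in both group means, and 47 of them on all 6 arrays. Their highest signal on any array was 94.0. For 18 genes no probe set was bright enough to test. These were the lipid and retinoid transporters ABCA4, ABCA6, ABCA8, ABCA9 and ABCA13, the drug pump ABCB1 with its close relatives ABCB4, ABCB5 and ABCB11, the organic anion pumps ABCC2, ABCC11 and ABCC12, the sulphonylurea receptors ABCC8 and ABCC9, the peroxisomal fatty acid transporter ABCD2, and the sterol transporters ABCG4, ABCG5 and ABCG8. Detection calls were not used here, so a dim signal carries no statement of absence. Without the filter, 2 of the 52 had an unadjusted p under 0.05 and 0 an adjusted one in limma. Over all 54613 probe sets, bright and dim, 13.2% had an unadjusted p under 0.05 and 486 an adjusted one. A dim ABCC9 probe set gave 1.12, 1.41 and 1.96 with CT45A1 and 10.98, 21.1 and 25.7 without it (limma adjusted p = 0.0749), and a dim ABCB5 probe set gave 30.7, 42.7 and 47.3 against 18.5, 1.105 and 11.7 (adjusted p = 0.306). Every one of these signals is below the array median, so no fold is given.

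The promoters of the tested and the dim genes had different median base compositions, a description with no test. RefSeq windows (GRCh38.p14) of the 250 bases before a transcription start were matched for 33 of the 41 genes, 20 tested and 13 dim, with several windows for genes with several starts. The windows of tested genes had a median GC content of 66.4% over 29 windows, and those of dim genes 46.2% over 20. The GC box GGGCGG, the letters bound by Sp family factors, was searched on both strands and found in 20 of 29 windows of tested genes and 5 of 20 of dim genes. Among all 35116 windows of that length, 42.6% held it. Counted by gene over any of its windows, 17 of 20 tested and 4 of 13 dim members held it. Across every gene on the array the contrast ran the same way but was smaller. There 62.7% of windows of tested genes and 37.4% of those of dim genes held it, and the median GC contents were 64.4% and 56.4%. The CCAAT box was found on either strand in 10 of 49 member windows, or 20.4%, beside 32.01% of all windows. The TATA box, searched as TATAAA on either strand, was found in 5 of 49, or 10.2%, beside 10.7%. A match is a run of letters only, not a bound site.

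**Figure D2:**
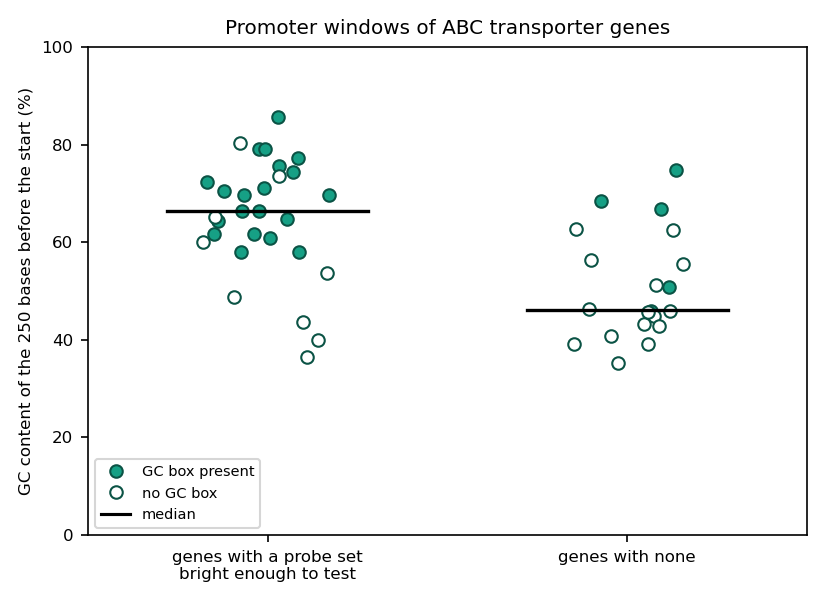
GC content in percent (y axis) of the 250 bases before each annotated start, for ABC transporter genes with a probe set bright enough to test (29 windows) and with none (20 windows). Each point is 1 window, filled where GGGCGG occurs on either strand, and bars are medians, at 66.4% and 46.2%.

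The next windows are shown as examples, from the drug pumps ABCG2, with a tested probe set, and ABCB1, with dim ones, and from ABCE1 and ABCF1, which are tested ribosome-associated members. They do not stand for every start of these genes. Of the 5 ABCG2 windows 3 lacked the GC box, and their GC content was 40%, 43.6% and 73.6%, while the other ABCB1 window had 39.2% and no match. ABCG2 is at chr4:88158910-88159159 (minus strand, 1 of its 5 windows), ABCB1 at chr7:87600885-87601134 (minus strand, 1 of its 2), ABCF1 at chr6:30571192-30571441 (plus strand) and ABCE1 at chr4:145098061-145098310 (plus strand), all in GRCh38.p14. Capitals mark a match of any of these motifs on either strand. The matches are 2 GC boxes for ABCG2, 1 for ABCF1, 2 CCAAT runs for ABCB1 and none of the 3 motifs for ABCE1. The GC content is 71.2% for ABCG2, 69.6% for ABCF1 and 55.6% for ABCB1.
ABCG2: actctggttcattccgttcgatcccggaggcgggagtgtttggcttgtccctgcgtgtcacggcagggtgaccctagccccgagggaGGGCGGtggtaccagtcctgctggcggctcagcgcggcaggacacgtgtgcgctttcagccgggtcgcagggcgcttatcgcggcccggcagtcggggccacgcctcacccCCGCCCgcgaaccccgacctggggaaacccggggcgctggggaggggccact
ABCF1: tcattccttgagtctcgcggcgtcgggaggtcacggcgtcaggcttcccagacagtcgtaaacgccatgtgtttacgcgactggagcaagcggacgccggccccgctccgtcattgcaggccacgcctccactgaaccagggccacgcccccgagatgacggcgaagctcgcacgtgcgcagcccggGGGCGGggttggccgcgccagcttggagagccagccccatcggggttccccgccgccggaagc
ABCB1: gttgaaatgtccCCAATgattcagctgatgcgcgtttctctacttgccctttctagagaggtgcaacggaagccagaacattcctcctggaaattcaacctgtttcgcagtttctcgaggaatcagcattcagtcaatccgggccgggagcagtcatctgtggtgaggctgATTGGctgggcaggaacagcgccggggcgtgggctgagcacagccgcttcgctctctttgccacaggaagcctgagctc
ABCE1: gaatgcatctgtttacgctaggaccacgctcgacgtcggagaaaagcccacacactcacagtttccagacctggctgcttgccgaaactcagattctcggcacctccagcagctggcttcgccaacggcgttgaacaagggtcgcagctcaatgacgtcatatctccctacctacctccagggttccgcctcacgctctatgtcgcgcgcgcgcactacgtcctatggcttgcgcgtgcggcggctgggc

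ABCG2, the breast cancer resistance protein, exports many anticancer drugs and urate. Its only tested probe set gave 282, 364 and 325 with CT45A1 and 510, 385 and 461 without it. All 3 overexpression arrays lay below all 3 negative ones, and the nearest pair, overexpression replicate 2 and negative replicate 2, were close. The log2 difference was -0.48 (SE 0.15, 95% interval -0.81 to -0.15, limma adjusted p = 0.112), from 8.81 ± 0.20 to 8.33 ± 0.18 (SD, n = 3), and it did not pass. It was -0.27 with the actin ratio in the model (SE 0.27, limma adjusted p = 0.646). After quantile normalization or cyclic loess it was -0.56 and did not pass (adjusted p = 0.0836 and 0.0839). Centring on the array median gave -0.62, where it passed (adjusted p = 0.0273).

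ABCC1, the multidrug resistance protein that exports glutathione conjugates and leukotrienes, was measured by a pair of tested probe sets. Its brighter probe set gave 2411, 2235 and 2269 with CT45A1 against 2451, 2291 and 2301. The groups overlapped, with overexpression replicates 2 and 3 below every negative array and overexpression replicate 1 among them. The difference was -0.03 (SE 0.07, adjusted p = 0.869 in limma), and its 95% interval ran from -0.19 to 0.13. After centring on the array median it was -0.17 (adjusted p = 0.195). The dimmer ABCC1 probe set gave 555.5, 569 and 543 against 528, 346 and 580.2. Only negative replicate 2 was low there. The difference was 0.23 (SE 0.17, limma adjusted p = 0.481), and 0.01 without that array. With the actin ratio in the model it was 0.71 (SE 0.27) and did not pass either.

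ABCB1, which encodes P-glycoprotein, had dim signals on every array. The first of its probe sets gave 44.9, 2.63 and 29.1 against 5.56, 2.16 and 24.03, and the other gave 31.4, 44.6 and 15.5 against 35.7, 35.1 and 9.25. The groups overlapped at both. A further probe set, annotated to ABCB4 and ABCB1 together and so not a member, was dim as well, at 24.0, 30.4 and 42.1 against 31.2, 18.1 and 4.96.

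**Figure D3:**
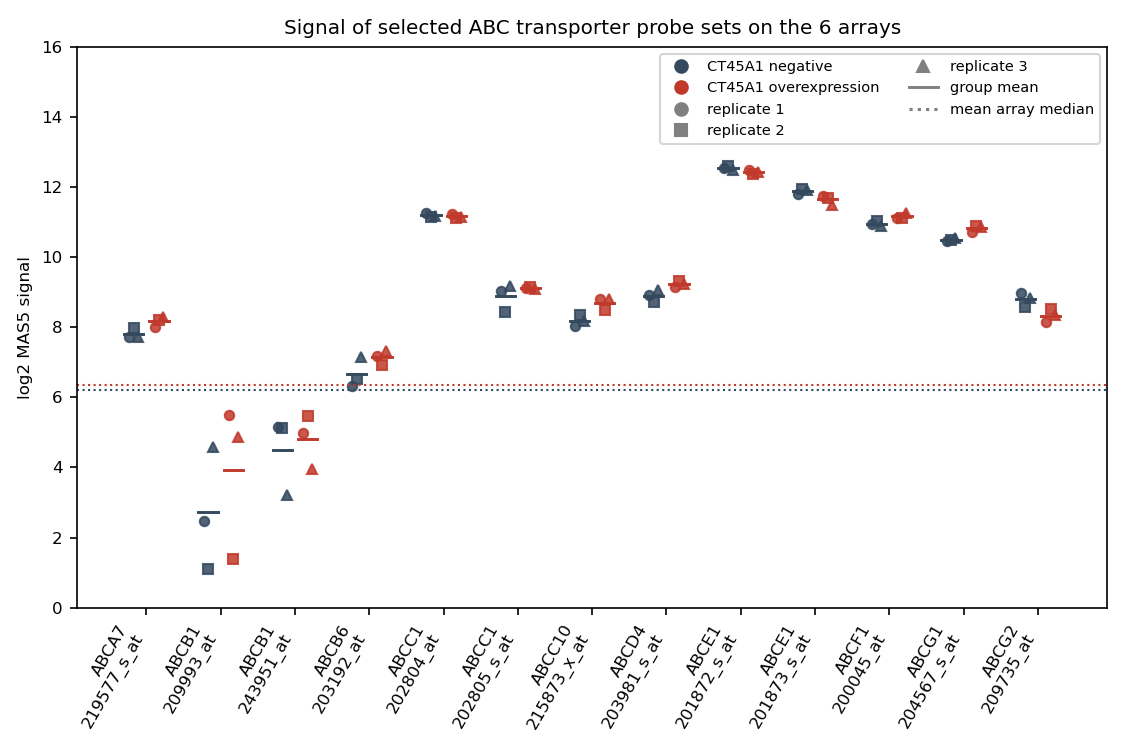
Log2 MAS5 signal (y axis) on the 3 negative (dark) and 3 overexpression (red) arrays for 13 ABC transporter probe sets (x axis), with marker shapes for the replicates, bars for group means and dotted lines for the mean array median of each group. ABCG1 and ABCC10 lie higher and ABCG2 and ABCE1 lower with CT45A1 on all 3 arrays, ABCC1 and ABCB6 overlap between the groups, and both ABCB1 probe sets lie below the array medians.

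The smallest p among the member probe sets tested belonged to ABCG1, which exports cholesterol to high-density lipoprotein. Its brightest probe set gave 1687, 1902 and 1871 with CT45A1 and 1400.0, 1440.0 and 1503 without it. The groups were clearly apart, with the lowest overexpression array above the highest negative one. The difference was 0.33 (SE 0.08, 95% interval 0.15 to 0.51, limma adjusted p = 0.0560 over probe sets and 0.0524 over genes), from 10.50 ± 0.05 to 10.83 ± 0.09 (SD, n = 3). It passed in 2 of 16 alternative settings at the level of probe sets, with a filter at the 75th percentile (adjusted p = 0.0381) and with the replicate number as a block (0.0475), and it was 0.18 (adjusted p = 0.217) after centring on the array median. The 3 other ABCG1 probe sets differed by 0.05, 0.13 and 0.16, with overlapping groups and limma adjusted p from 0.686 to 0.801. All 4 lay above 0 in the deposited scaling, but the size was carried by the brightest. The differences of 0.05 and 0.13 are smaller than the 0.14 that centring on the array median takes off.

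**Figure D4:**
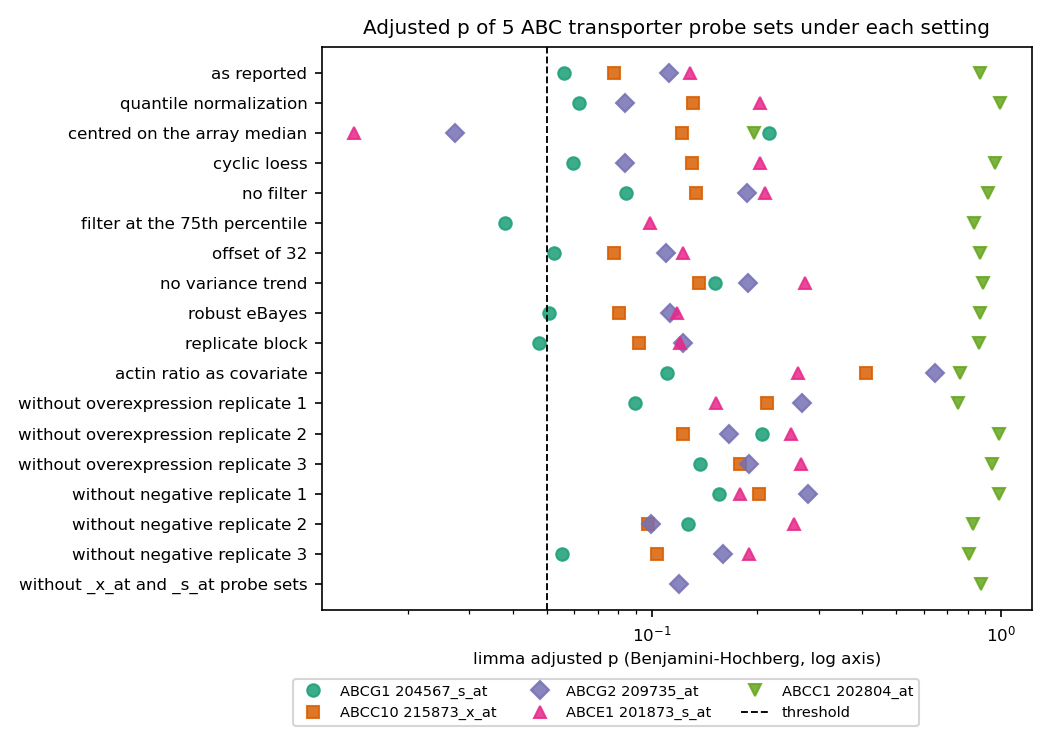
Limma adjusted p (x axis, log scale) of 5 ABC transporter probe sets as reported and under alternative settings (y axis), with the threshold of 0.05 dashed. A probe set has no point in a setting that left it out. ABCG1 crosses it with the 75th percentile filter and the replicate block, ABCG2 and ABCE1 after centring on the array median, and ABCC10 and ABCC1 under no setting shown.

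The other lipid transporters were mixed. ABCA1, which loads cholesterol and phospholipid onto apolipoprotein A-I, gave 477, 523 and 600.5 against 691, 496 and 923 at its brighter probe set, a difference of -0.36 (SE 0.20, adjusted p = 0.324 in limma), and 0.05 at its other tested probe set. Negative replicate 3 was the highest and negative replicate 2 lay inside the overexpression range. ABCA7, a phospholipid transporter, gave 258, 295 and 314 against 209.6, 252 and 212, and its groups did not overlap. The difference was 0.37 (SE 0.15, limma adjusted p = 0.216). ABCA5, a lysosomal lipid transporter, ABCA12, which fills the lipid granules of keratinocytes, ABCA3, which loads surfactant lipid into the lamellar bodies of alveolar type II cells, and ABCA2, of late endosomes and lysosomes, differed by 0.26, 0.20, 0.13 and 0.09 with overlapping groups (adjusted p from 0.439 to 0.872 in limma).

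Of the organic anion pumps, ABCC10, which transports taxanes among other drugs, differed most among those with groups apart. Its dimmer probe set, of the _x_at type, gave 450.0, 364 and 444 against 262, 324 and 289, so that every overexpression array lay above every negative one. The difference was 0.52 (SE 0.14, 95% interval 0.21 to 0.84, limma adjusted p = 0.0779). A probe set ending in _x_at or _s_at can match several transcripts. The smallest p of subfamilies A, D, E and G came from _s_at probe sets. The brighter ABCC10 probe set gave 1276, 1395 and 1170 against 1288, 1058 and 1100.5, which overlap, with a difference of 0.16 (SE 0.10, adjusted p = 0.419). With probe sets averaged per gene, ABCC10 had the smallest limma adjusted p of the family, 0.0513, which did not pass.

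ABCC5, an exporter of cyclic nucleotides, gave 704, 757 and 695 against 620.1, 624 and 566 at its brightest probe set, without overlap. The difference was 0.25 (SE 0.10, limma adjusted p = 0.179). Its other tested probe sets differed by 0.22 and -0.31, both with overlapping groups. ABCC4, also an exporter of cyclic nucleotides and of prostaglandins, differed by -0.14 (SE 0.16) at its brighter probe set, and by -0.65 (SE 0.53) at the dimmer one, where the overexpression signals were 22.8, 89.5 and 72.03 and their mean was dim. ABCC3, which exports bile salts and glucuronides, had 4 tested probe sets with differences from -0.14 to 0.51 and adjusted p from 0.436 to 0.956 in limma, all with overlapping groups. At 1 of these the 6 signals ran from 24.9 to 169.9 with both group means dim, and at the probe set with the difference of 0.51 negative replicate 1 alone was low, at 49.4.

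The mitochondrial and lysosomal members of subfamily B were not called either. ABCB6, a porphyrin transporter, gave 146, 120.4 and 160.1 against 79.7, 91.3 and 142. Negative replicate 3 lay within the overexpression range, and the difference was 0.48 (SE 0.28, limma adjusted p = 0.353). With the actin ratio in the model it was 1.16 (SE 0.47, adjusted p = 0.231). It was 0.31 without negative replicate 1 and 0.73 without negative replicate 3 (adjusted p = 0.622 and 0.165). ABCB10, an inner membrane protein needed for haem synthesis, differed by -0.09 (SE 0.09) from signals of 1333 to 1536 without CT45A1 and 1254 to 1439 with it. ABCB8, another mitochondrial member, differed by 0.14 (SE 0.23). ABCB9, a lysosomal peptide transporter, had the largest difference of all, 0.96, and the largest error (SE 0.87, adjusted p = 0.565), and negative replicate 2 had a signal of 7.997 where the other arrays ran from 65.7 to 126.

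In subfamily D, ABCD4, which takes part in the export of vitamin B12 from lysosomes, gave 570.3, 645 and 603 against 484, 424 and 531. The groups did not overlap, and the difference was 0.34 (SE 0.12, 95% interval 0.08 to 0.61, limma adjusted p = 0.139). With the actin ratio in the model it was 0.62 (SE 0.20, limma adjusted p = 0.133), and after centring on the array median 0.20 (adjusted p = 0.320). ABCD3, a peroxisomal importer of fatty acyl-CoA, had probe sets on either side of 0. At the brighter one the signals were 4831, 5459 and 4880 against 5125, 5433 and 5176, with a difference of -0.05 (SE 0.07) and overlapping groups. At the dimmer one they were 957, 822 and 917 against 809, 749 and 746, with a difference of 0.22 (SE 0.10, adjusted p = 0.224) and no overlap.

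The ribosome-associated members lay on both sides of 0, and none passed. ABCE1, which splits ribosomes after termination, was lower at both of its probe sets without overlap of the groups. At the brighter one, the brightest probe set of the family, it gave 5748, 5363 and 5524 against 5994, 6182 and 5796, a difference of -0.11 (SE 0.06, limma adjusted p = 0.327). At the other it gave 3457, 3309 and 2898 against 3596, 3926 and 3899, a difference of -0.24 (SE 0.08, adjusted p = 0.128). Both probe sets passed after centring on the array median, at -0.26 and -0.39 (adjusted p = 0.0403 and 0.0141). The brighter one was -0.06 after quantile normalization and -0.05 after cyclic loess (adjusted p = 0.625 and 0.684), and the other was -0.21 after either (adjusted p = 0.204 and 0.203).

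ABCF1, which binds ribosomes and initiation factor eIF2, lay on the other side, at 2239, 2216 and 2434 against 1961, 2094 and 1893. The groups did not overlap, and the difference was 0.21 (SE 0.08, 95% interval 0.04 to 0.38, limma adjusted p = 0.154). After centring on the array median it was 0.07 (adjusted p = 0.676). ABCF2, a relative of ABCF1, had 4 tested probe sets that differed by 0.29, 0.17, 0.13 and -0.28. The groups did not overlap at the probe sets with 0.29 and 0.13, at 568, 603 and 556 against 446, 497 and 474, and at 962, 861 and 824 against 800.4, 809 and 802 (adjusted p = 0.158 and 0.458 in limma). ABCF3, which also lacks a membrane domain, differed by 0.09 (SE 0.12) with overlapping groups.

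Probe sets of the same gene did not always lie on 1 side of 0. Of 10 genes with more than 1 tested probe set, 6 had differences on both sides of 0, namely ABCA1, ABCC1, ABCC3, ABCC5, ABCD3 and ABCF2. The other 4, ABCC4, ABCC10, ABCE1 and ABCG1, kept to 1 side. These lists hold for the deposited scaling only, as centring on the array median lowers every difference by 0.14. Since probe sets of 1 gene can match different transcripts, and signals of different probe sets cannot be set against each other, no order of expression levels within the family is given.

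Other members of the superfamily carry symbols that do not start with ABC. TAP1 and TAP2 together form the transporter that brings peptides to class I molecules. TAP2 gave 697, 728 and 807 with CT45A1 and 966, 1028 and 951 without it at its brightest probe set, without overlap. It fell by 0.40 on the log2 scale (SE 0.10) and passed over genes (limma adjusted p = 0.0466) but not over probe sets (0.0501), and it differed by -0.25 and 0.18 at its other probe sets and by -0.16 with their mean (adjusted p = 0.449). It passed in 7 of 18 alternatives and in 0 of the 6 that left out an array, where the adjusted p ran from 0.0540 to 0.172. TAP1 gave 1723, 1716 and 1799 against 1596, 1535 and 1523, a difference of 0.17 (SE 0.07, limma adjusted p = 0.221). The chloride channel CFTR was on the array but not bright enough to test.

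Genes that work with the transporters were counted by lists chosen for their roles, beside 231 higher and 225 lower of 11895 genes in all and a median difference of 0.01 over them. After centring on the array median that split was 165 higher and 1650 lower. Centring also lowers every difference, and so every list median, by 0.14. That is more than the size of any list median given below, so the sides of 0 hold for the deposited scaling only. At an unadjusted p under 0.05 there were 10.7% higher and 10.2% lower of all genes, and 51.7% of all genes lay above 0. None of the lists described next held a gene past the test. Of 14 tested genes of ribosome recycling, termination and stress signalling, the setting in which ABCE1 and the F subfamily act, 11 lay below 0, the median was -0.08 and 6 had an unadjusted p under 0.05, all lower. MCTS1, a recycling and reinitiation factor, and EIF2S1, the alpha subunit of eIF2, differed by -0.26 and -0.30 (limma adjusted p = 0.0520 and 0.0552). The release factors GSPT1 and ETF1 differed by -0.22 and -0.18 (adjusted p = 0.0938 and 0.126), and PELO, which recognises stalled ribosomes, by -0.10.

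In the sterol efflux list, 6 of 8 tested genes lay above 0 with a median of 0.13, and 2 had an unadjusted p under 0.05, both higher. PLTP, the phospholipid transfer protein, differed by 0.59 (SE 0.15, limma adjusted p = 0.0597) and SREBF1, a regulator of lipid synthesis, by 0.37 (adjusted p = 0.167). NR1H3, which encodes the liver X receptor alpha that induces ABCA1 and ABCG1, differed by 0.09 (SE 0.18) with overlapping groups. Of 9 tested regulators of xenobiotic and oxidative stress responses 7 lay above 0, with a median of 0.07, and 3 were higher and 1 lower at an unadjusted p under 0.05. AHR, the aryl hydrocarbon receptor, differed by 0.49 (SE 0.13, adjusted p = 0.0771), RXRA and RXRB, partners of several nuclear receptors, by 0.31 each (adjusted p = 0.142 and 0.145), and NFE2L2, the oxidative stress regulator NRF2, by 0.07.

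Of 20 tested genes that supply or conjugate glutathione, 13 lay below 0, with a median of -0.06, and 2 were higher and 4 lower at an unadjusted p under 0.05. GSTM4 and GSTM1 differed by 0.49 and 0.60 (limma adjusted p = 0.149 and 0.237) from probe sets ending in _x_at, and GCLM, a subunit of the rate-limiting enzyme of glutathione synthesis, by -0.17 (adjusted p = 0.228). Of 18 peroxisomal genes 10 lay below 0, with a median of -0.06, and 2 were higher and 3 lower at that level. ACOT8, a peroxisomal thioesterase, differed by -0.49 (SE 0.13, adjusted p = 0.0652). Of 18 genes for haem and iron-sulphur clusters 8 lay below 0, with a median of 0.01, and 2 were lower at that level. UROD, a haem synthesis enzyme, differed by -0.21 (adjusted p = 0.124). Of 11 membrane scaffold and sorting genes 7 lay below 0, with a median of -0.09, and 1 was lower at that level. Neither of the 2 channel pores that pair with the sulphonylurea receptors was bright enough to test.

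**Figure D5:**
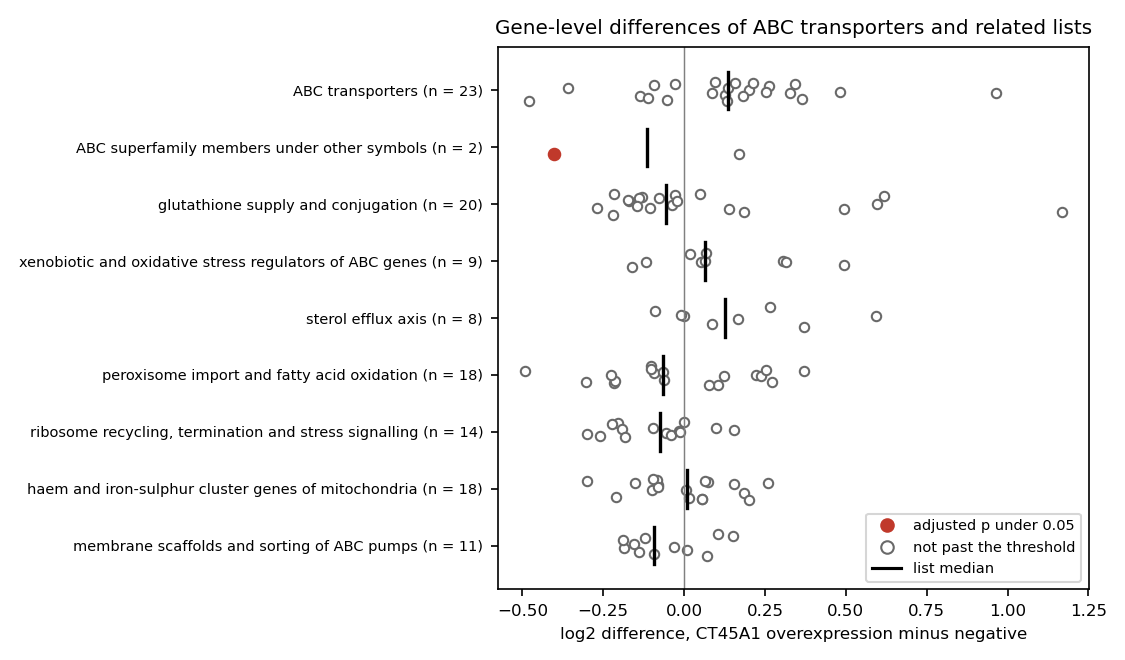
Log2 difference (overexpression minus negative, x axis) of each tested gene, at its brightest probe set, for the 23 ABC transporter genes and 8 related lists (y axis, with the number of genes tested). Points are genes, black bars list medians, and TAP2 is the only filled point, the gene with an adjusted p under 0.05.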

How the data were processed

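Per the labels' protocols, total RNA of each sample was amplified and biotin-labelled by in vitro transcription for a 3' array. Each deposited value is a MAS5 intensity on a linear scale. The submitters' processing notes name MAS5 and affy, and their versions are not given in the sources used here. After trimming 2% of values, the mean was 500.1 on every array, so the authors' values share a scale, which leaves the medians free to differ.

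The deposited intensities were transformed to log2 with no offset added, and 62 control probe sets were left out. Probe sets brighter than the median of their array on 3 or more of 6 arrays were kept, and limma (lmFit, 1 mean per group, eBayes with trend) was fitted on all 27618, with Benjamini-Hochberg adjustment and two-sided tests. Genes took their brightest kept probe set, and symbols were updated through Entrez identifiers in RefSeq (GRCh38.p14). Errors are limma standard errors or SDs over 3 arrays, and precision is limited by having 3 arrays a group. Of 2990 pairs of promoter windows that overlap on opposite strands, 2990 matched as reverse complements.

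The members and lists were chosen with earlier results of these data known. Values on every array were given for the 3 drug efflux pumps, the smallest p of each subfamily and the brightest probe set. Values of further member probe sets, chosen after they were seen, were also given. So were those of TAP1, TAP2 and the probe set annotated to ABCB4 and ABCB1 together. Alternatives were 3 other scalings, 2 other filters, an offset of 32, 2 other variance models, the replicate block, the actin ratio as a covariate, averaged probe sets, leaving out each array, and leaving out cross-matching (_x_at, _s_at) probe sets. The fit was tested on simulated arrays. The tools were limma 3.58.1 in R 4.3.3, and Python 3.11.15 with pandas 2.3.3, numpy 2.4.6, scipy 1.17.1 and matplotlib 3.10.9.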

Additional observations from a re-analysis of the deposited data

How the results depend on the processing

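The count of ABC transporter probe sets past the limma threshold, 0 higher and 0 lower, held under 14 of 17 alternatives. With a filter at the 75th percentile and with the replicate block 1 was higher, ABCG1 in both, and after centring on the array median 3 were lower, ABCE1 at both probe sets and ABCG2. Over genes, 0 and 0 held under 13 of 18. ABCG1 passed upward, giving a count of 1, with the 75th percentile filter, the offset of 32, robust eBayes and the replicate block, and after centring 2 genes, ABCE1 and ABCG2, were lower. Leaving out each array gave counts of 0 to 0 in both directions at both levels. Leaving out cross-matching probe sets left 19 member probe sets. It removed those of ABCG1, ABCC10, ABCE1, ABCD4 and ABCA7 named by rule and the dimmer ABCC1 one, so it could not test them. Of 176 refits of the 11 probe sets named by rule, 5 gained the threshold and 1 changed sign, ABCC1 at its brighter probe set, whose difference was 0.00476 without negative replicate 1, in a range of -0.0595 to 0.00476 over the arrays left out. The cause was not tested.

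The replicate numbers are not stated to pair the samples, so the replicate block was used only as an alternative. Deviations of same-numbered arrays from their group means had correlations of -0.01, -0.01 and 0.10. The replicate block moved the count over all probe sets from 892 to 1189. Centring on the array median raised that count to 2975, 387 higher and 2588 lower, against 522 and 370, and it was 4 without the variance trend, 486 without a filter, 446 without cross-matching probe sets and 156 to 1152 with an array left out. Over all genes, 456 were called, beside 1815, 11, 306, 311 and 91 to 565 in that order. Signals near or below the array median, as for ABCB9 and ABCC3, limit what the arrays can show.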
